A study of Mus musculus with 12 samples.

Results

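The genes described here encode the core scaffold proteins of the postsynaptic density: Shank1, Shank2 and Shank3, the 4 membrane-associated guanylate kinase genes Dlg1 to Dlg4, and the 3 linker genes Dlgap1, Dlgap2 and Dlgap3. They were found by name in the expression tables of the study, and all 10 of 10 were present at each of the 3 time points, among 40473, 40478 and 40470 named genes at 2 h, 24 h and 7 d. The animals were adult male C57BL/6 mice (C57BL/6 J in the methods), 10 weeks old by the labels, with no genetic modification named. Saline controls and mice given repeated injections of cocaine were examined at 2 h, 24 h or 7 d of withdrawal, counted from the final injection, which gave 6 groups: control and cocaine at 2 h, control and cocaine at 24 h, and control and cocaine at 7 d. The tissue was the bilateral prefrontal cortex (PFC), excised with the frontal association, prelimbic and orbital areas together, and each of the 12 libraries, 2 per group, pooled the tissue of 5 mice, 60 mice in all. The study asked how expression in the PFC differs from that of control animals early and late in withdrawal from repeated cocaine.

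The postsynaptic density is the protein-rich layer beneath the membrane of excitatory synapses, where glutamate receptors are anchored opposite the presynaptic release site. Its scaffold is built in layers: Dlg proteins, of which PSD-95 (the product of Dlg4) is the best known, bind the tails of NMDA receptors, potassium channels and adhesion proteins through PDZ domains, the Dlgap proteins (SAPAP or GKAP) bind the guanylate kinase domain of the Dlg proteins, and the Shank proteins bind the Dlgap proteins and link them through Homer to metabotropic glutamate receptors and through cortactin to actin. These scaffolds set how many receptors a synapse holds and help shape the dendritic spine, and inherited lesions of several of them are associated with autism and intellectual disability.

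The values are FPKM, fragments scaled to the length of the transcript and to the mapped reads of the library, and the tables hold 1 pooled value per group and gene. There were 13 entries per table that named a scaffold gene, and where a gene had a second entry, over the same interval, the one with the higher mean FPKM was used. The entries not used, that of Dlg2 aside, were at 2.44 FPKM or less. No spread between libraries can therefore be attached to any value, the tables do not give the depth behind it, and no difference below was tested. Each comparison is given as the log2 ratio of cocaine over control, with 0.1 FPKM added to both, and a gene is counted as higher or lower when the ratio passed 1.2-fold, which is 0.26 on the log2 scale. In bulk tissue, fewer cells of a type and less RNA per cell cannot be told apart.

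Cocaine and control differed most in the Shank family. At 2 h, 2 of the 10 genes, Shank1 and Shank3, were higher in cocaine past 1.2-fold, against 10.3% of the 13974 genes with a mean of at least 1 FPKM, and 0 were lower, against 7.26%. At 24 h, 0 of the 10 passed the fold in either direction, where 6.00% of genes were higher and 5.45% lower. At 7 d, Shank1, Shank2 and Shank3 were higher, 3 of 10 against 8.19% of genes, and 0 were lower, against 11.9%. At the 3 times in turn, the median log2 ratio of the 10 genes was 0.16, -0.09 and 0.17, and that of all genes 0.02, 0.01 and -0.01.

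The group columns and the tissue were checked on genes outside the scaffold. The activity-regulated gene Arc was at 5.59 FPKM in control and 77.8 in cocaine at 2 h, Fos at 2.02 and 14.3, and Egr1 at 41.9 and 121, and all 6 activity-regulated genes listed were higher in cocaine past the fold at each time point. Slc17a7, the vesicular glutamate transporter of cortical excitatory neurons, lay between 466 and 532 FPKM in the 6 groups, whereas the striatal receptor genes Drd1a and Drd2 were below 1 FPKM in each.

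Promoter sequences were available from RefSeq (GRCm38.p6) for 7 of the 10 genes, at 16 start sites, and are shown for Shank3, whose ratio passed the fold at 2 h and 7 d, and for Dlg1, whose ratio stayed near 0. Each line gives the 250 bases before a start site on the plus strand, with capitals for a match on either strand to any of 6 motifs: the CRE TGACGTCA, its core TGACG, the EGR motif GCGNGGGCG, the AP-1 motif TGANTCA, the E-box CACGTG and the GC box GGGCGG.
Shank3 promoter, chr15:89499358-89499607: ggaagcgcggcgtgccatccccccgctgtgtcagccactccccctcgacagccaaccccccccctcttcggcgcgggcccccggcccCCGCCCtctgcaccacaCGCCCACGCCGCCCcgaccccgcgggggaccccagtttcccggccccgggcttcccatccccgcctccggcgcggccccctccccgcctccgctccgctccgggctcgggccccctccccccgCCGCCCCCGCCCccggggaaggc
Dlg1 promoter, chr16:31663193-31663442: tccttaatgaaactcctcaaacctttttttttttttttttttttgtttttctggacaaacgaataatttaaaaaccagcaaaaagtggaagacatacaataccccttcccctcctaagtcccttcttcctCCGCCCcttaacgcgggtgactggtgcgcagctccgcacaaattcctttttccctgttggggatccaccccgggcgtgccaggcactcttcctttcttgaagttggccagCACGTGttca
The Shank3 stretch was 82.4% G and C, against a median of 52.4% over the 32851 promoters of the table, and held 2 EGR matches, both overlapping a GC box, and 4 GC boxes. The Dlg1 stretch, chosen because it ends where the Dlg1 locus of the tables begins, was 46% G and C and held 1 GC box and 1 E-box. The 4 Dlg1 start sites ranged from 30.8% to 68.8% G and C, and the table holds 1 start site for Shank3. RefSeq begins the Shank3 gene further upstream, at 89493013, so the window shown lies before a start site inside the gene span. Of the 16 scaffold promoters, 1 held an EGR match, 5 a GC box, 3 an E-box, 2 the CRE core and 0 the full CRE or the AP-1 motif. Among all promoters, 4.70% held the EGR motif, 32.7% the GC box, 6.02% the E-box, 17.8% the core, 1.55% the full CRE and 6.75% the AP-1 motif. Such matches describe the letters of these windows and say nothing of whether a factor was bound.

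All 10 genes were well above the 1 FPKM minimum in every group, and their levels spanned more than an order of magnitude. FPKM is per length, so levels can be set side by side between genes. Dlg4 stood highest, with a median of 288 FPKM over the 3 control groups, followed by Dlgap3 at 113.6, Dlgap1 at 93.9 and Dlg2 at 58.6. Dlg3 was at 48.3 FPKM, Shank1 at 42.9, Dlg1 at 38.7 and Shank3 at 38.0, and their control ranges overlapped between neighbours in this order. Shank2, at 19.6, and Dlgap2, at 14.4, were the lowest. The ranges of the 3 control values did not overlap between the other neighbours, but these ranges cover time points whose tables were normalized separately and not replicates.

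**Figure D1:**
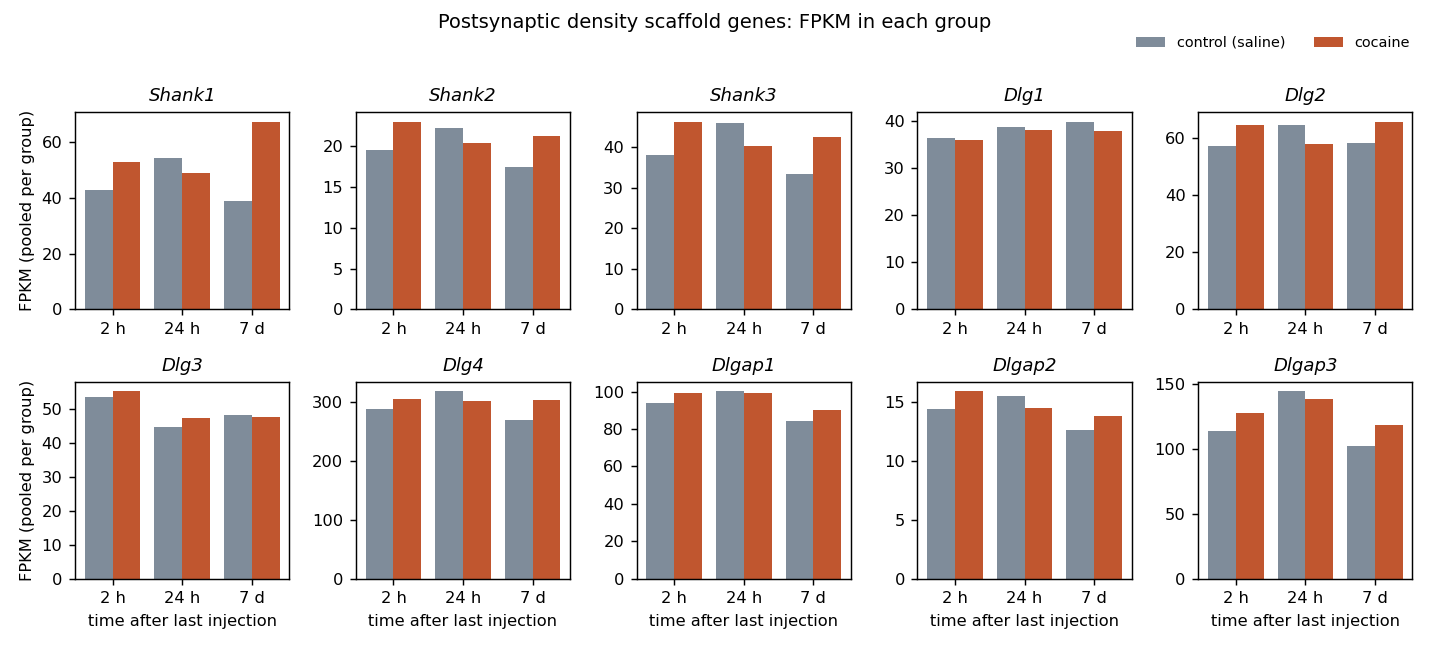
FPKM of each scaffold gene (vertical axis from 0, with its own scale for each gene) at 2 h, 24 h and 7 d after the last injection, with a grey bar for control and an orange bar for cocaine. Each bar is the single pooled value of a group and has no error. Dlg4 reaches 319 FPKM and Dlgap2 no more than 16.0, and the gap between the bars that is widest for its gene's scale is that of Shank1 at 7 d, 39.1 against 67.5.

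The Shank proteins form the deepest layer of the scaffold. Shank1, the family member most restricted to the brain, was at 42.9 FPKM in control and 53.0 in cocaine at 2 h, a log2 ratio of 0.31. At 24 h the order was turned, with 54.4 FPKM in control and 49.2 in cocaine (log2 ratio -0.15). At 7 d Shank1 was at 39.1 FPKM in control and 67.5 in cocaine, 1.72-fold (log2 ratio 0.79). This was the largest ratio among the scaffold genes at any time point, and 1.15% of all genes at 7 d had a higher one. The 2 values that made it were also the lowest and the highest of the 6 that Shank1 had.

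The 7 d value of Shank1 comes with a locus that differed from that of the other time points. On GRCm38 the tables place Shank1 in an interval on chromosome 7, from 44303564 to 44400187 at 2 h and 24 h and from 44303770 at 7 d. RefSeq places the gene itself at 44308916 to 44360094, so the interval is a merged one, and it also carries separate entries for Clec11a, Syt3 and 1700008O03Rik. The RefSeq span of 1700008O03Rik, 44360043 to 44385694, overlaps the end of Shank1. 1700008O03Rik was at 31.8 and 34.3 FPKM in control and cocaine at 2 h and at 34.4 and 33.5 at 24 h, but at 3.59 and 2.06 at 7 d. Syt3, by contrast, stayed between 12.3 and 15.3 FPKM in all 6 groups. How the assignment of reads among these entries entered the Shank1 ratio at 7 d was not tested.

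Shank2 and Shank3, which share the ankyrin, SH3, PDZ and SAM modules of Shank1, showed the same order of groups, with smaller ratios than Shank1 at 2 h and 7 d. Shank2, on chromosome 7 at 144001928 to 144425997, was at 19.6 FPKM in control and 23.0 in cocaine at 2 h (log2 ratio 0.23). It was at 22.2 and 20.4 FPKM at 24 h (-0.12), and at 17.5 and 21.2 at 7 d (0.28). Its 7 d ratio lay just past the fold and its 2 h ratio just short of it.

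Shank3, whose loss in people is a known cause of Phelan-McDermid syndrome, lies on chromosome 15 at 89499623 to 89560261 in the tables. It was at 38.0 FPKM in control and 46.3 in cocaine at 2 h (log2 ratio 0.28), at 45.9 and 40.2 at 24 h (-0.19), and at 33.4 and 42.4 at 7 d (0.34). The 24 h ratio was the lowest of any scaffold gene, and the 3 Shank genes took 3 of the 4 lowest places at 24 h as well as the 3 highest at 2 h and at 7 d. Shank3 shared its interval with Gm15609, which stayed between 0.901 and 1.30 FPKM.

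The Dlg genes, which encode the layer next to the membrane, stayed within 1.2-fold at all 3 time points. Dlg4, which encodes PSD-95 and lies on chromosome 11 at 70017085 to 70047492, was at 288 FPKM in control and 306 in cocaine at 2 h (log2 ratio 0.08). It was at 319 and 301 FPKM at 24 h (-0.08), and at 270 and 304 at 7 d (0.17). The 3 cocaine values of Dlg4 lay within 1.02-fold of each other and the 3 control values within 1.18-fold.

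Dlg2, which encodes PSD-93 and lies on chromosome 7 at 91090706 to 92449237, followed the order of the Shank genes. It was at 57.3 FPKM in control and 64.9 in cocaine at 2 h (log2 ratio 0.18), at 64.8 and 58.2 at 24 h (-0.16) and at 58.6 and 65.9 at 7 d (0.17). A second Dlg2 entry in the same interval was at 18.8 and 21.1 FPKM at 2 h, at 14.6 and 15.9 at 24 h and at 20.9 and 23.0 at 7 d. Both entries span the same interval, and the one with the higher mean FPKM was used. At 24 h the second entry was higher in cocaine (log2 ratio 0.12), where the one used was lower, so the sign given for Dlg2 at 24 h rests on that choice. Gm22734, a short gene within the Dlg2 interval, was listed at 194 FPKM in control and at 0 in cocaine at 24 h and at 0 in the other 4 groups.

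Dlg1 and Dlg3 did not follow that order. Dlg1, which encodes SAP97, on chromosome 16 at 31663443 to 31873356, was at 36.4 FPKM in control and 36.0 in cocaine at 2 h, at 38.7 and 38.1 at 24 h, and at 39.9 and 37.9 at 7 d. Its log2 ratios were -0.01, -0.02 and -0.07, all slightly below 0. Dlg3, which encodes SAP102 and lies on the X chromosome at 100767456 to 100818414, was at 53.4 and 55.2 FPKM at 2 h, at 44.7 and 47.2 at 24 h, and at 48.3 and 47.6 at 7 d. Its log2 ratios were 0.05, 0.08 and -0.02, so that Dlg3 was the only scaffold gene above 0 at 24 h.

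The Dlgap genes, which encode the linkers between the Dlg and Shank layers, all lay above 0 at 2 h and 7 d and below 0 at 24 h, and 0 of 3 passed the fold at any time point. Dlgap3, on chromosome 4 at 127169204 to 127239925, was the most abundant of them. It was at 113.6 FPKM in control and 127.8 in cocaine at 2 h (log2 ratio 0.17), at 144.7 and 138.7 at 24 h (-0.06), and at 102.6 and 118.8 at 7 d (0.21). Dlgap1, on chromosome 17 at 69968945 to 70821559, was at 93.9 and 99.0 FPKM at 2 h (0.08), at 100.3 and 99.2 at 24 h (-0.02), and at 84.5 and 90.4 at 7 d (0.10), where the software marked its test as failed. Dlgap2, the least abundant linker, on chromosome 8 at 14095838 to 14853433, was at 14.4 and 16.0 FPKM at 2 h (0.15), at 15.6 and 14.5 at 24 h (-0.10), and at 12.7 and 13.8 at 7 d (0.12).

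Thus 9 of the 10 genes had a ratio above 0 at 2 h, 1 at 24 h and 8 at 7 d. For 8 of the 10 the pooled value was higher in cocaine at 2 h, lower at 24 h and higher again at 7 d, the exceptions being Dlg1 and Dlg3. The same order held for 13.8% of the 13593 genes measured at all time points and for 21.1% of those of 3457 to 8988 nt, the range of transcript lengths of the scaffold genes. By family, the medians at 2 h, 24 h and 7 d were 0.28, -0.15 and 0.34 for the Shank genes, 0.07, -0.05 and 0.08 for the Dlg genes, and 0.15, -0.06 and 0.12 for the Dlgap genes.

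**Figure D2:**
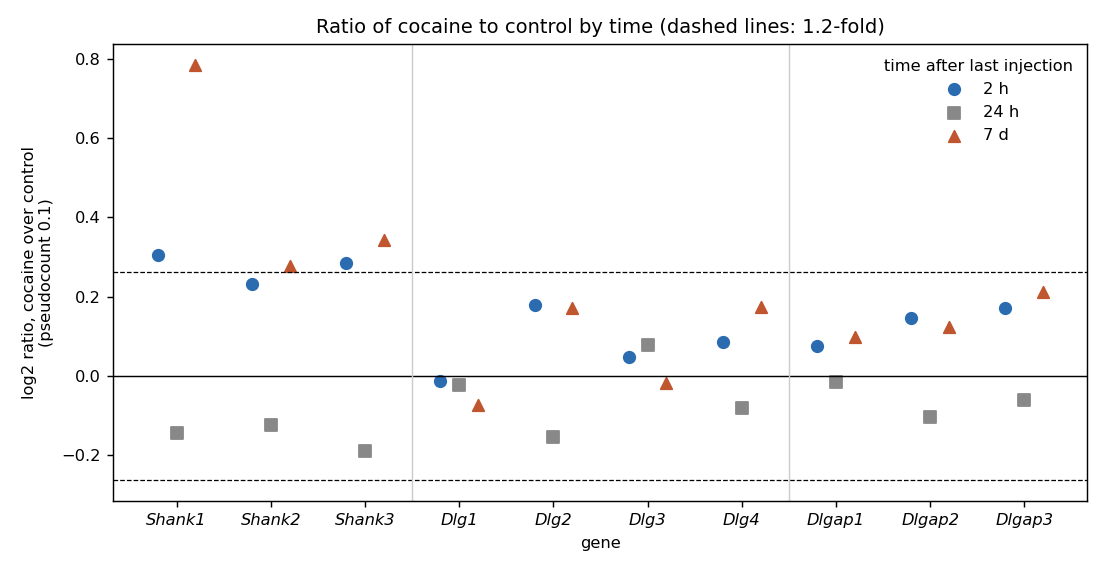
Log2 ratio of cocaine over control (vertical axis, 0.1 FPKM added to both) for each scaffold gene at 2 h (circles), 24 h (squares) and 7 d (triangles), from 1 pooled value per group. Dashed lines mark 1.2-fold. The circles and triangles of Shank1, Shank2 and Shank3 lie at 0.23 and above and their squares at -0.12 and below, and those of Dlg1 and Dlg3 stay between -0.07 and 0.08.

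Scaffold transcripts are long, and the ratio moved with transcript length. The longest protein-coding transcript of the 10 genes measured from 3457 nt for Dlg4 to 8988 nt for Shank2, with 7605 nt for Shank1 and 7365 nt for Shank3. When the genes with a length were split into 20 groups by length, the median log2 ratio at 7 d ran from -0.23 in the shortest group, with a median of 669 nt, to 0.14 in the longest, with 9115 nt. Among genes of 3457 to 8988 nt, the medians at the 3 times were 0.05, 0.02 and 0.07. Past the fold, 10.5%, 4.07% and 10.2% of them were higher and 3.65%, 2.72% and 2.73% lower. Of genes in that range with at least 10 FPKM, the range in which all scaffold genes lay, 6.29% were higher at 2 h, 1.33% at 24 h and 4.83% at 7 d, while 1.18%, 0.666% and 2.09% were lower. The Shank transcripts lie in the longest part of the range. At 7 d 15.6% of genes in the length group of Shank1 and Shank3 were higher past the fold, and 21.2% in that of Shank2.

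With the median of its length group taken from each ratio, the medians of the 10 genes were 0.11 at 2 h, -0.11 at 24 h and 0.12 at 7 d. Shank1 and Shank3 then had 0.23 and 0.21 at 2 h, short of the fold, and Shank2 and Shank3 had 0.14 and 0.22 at 7 d, also short of it. Shank1 at 7 d kept 0.66, and 0.0660% of the genes of 3457 to 8988 nt had a higher ratio before this step. At 24 h the same step moved the Shank genes little, to -0.18 for Shank1, -0.16 for Shank2 and -0.22 for Shank3.

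**Figure D3:**
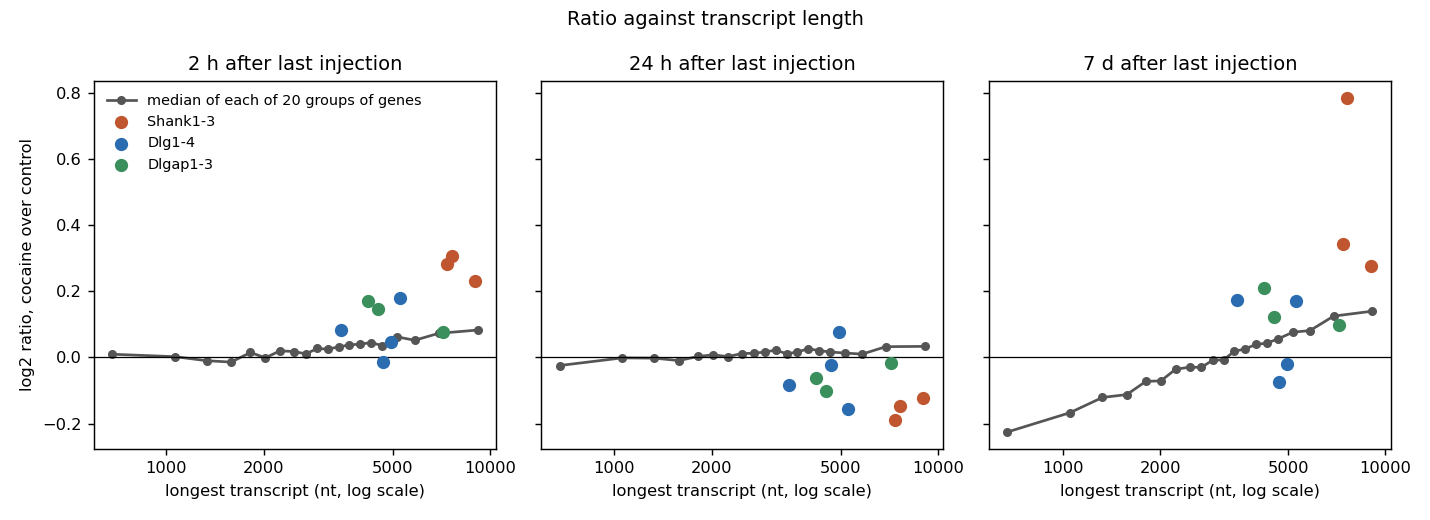
Log2 ratio of cocaine over control (vertical axis) against the length of the longest protein-coding transcript in nt (horizontal log axis) at 2 h, 24 h and 7 d. Grey points joined by a line are the medians of 20 groups of genes by length, and coloured points are the scaffold genes by family. At 7 d the line runs from -0.23 to 0.14, and Shank1 stands at 0.79 above it, whereas Dlg1, Dlg3 and Dlgap1 lie below it.

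Set across time points, the control values moved more than the cocaine values. The 3 tables were normalized separately, so that these levels carry the scaling of each table. Control was highest at 24 h in 8 of the 10 genes, against 37.2% of all genes and 48.2% of genes in the same length range, and lowest at 7 d in 7 of 10, against 40.3% and 62.4%. The median log2 ratio of control at 24 h over control at 7 d was 0.27 for the scaffold genes, 0.02 for all genes and 0.12 for the length range. For cocaine it was -0.01, 0.05 and 0.07. Shank3, for example, ranged from 33.4 to 45.9 FPKM over the control groups and from 40.2 to 46.3 over the cocaine groups. The control range was the wider one in 9 of 10 genes, the exception being Dlg2, against 55.1% of all genes. The same control values enter the ratios given above, so this description and the ratios are not independent.

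The scaffold's binding partners were described from 2 lists, 38 cytoplasmic partners and 24 receptors, channels and adhesion proteins of the postsynaptic membrane, all measured at 1 FPKM or more. Among the cytoplasmic partners, 6 were higher and 0 lower at 2 h, 2 higher and 1 lower at 24 h, and 10 higher and 3 lower at 7 d. Over all genes the shares higher were 10.3%, 6.00% and 8.19% and the shares lower 7.26%, 5.45% and 11.9%, and among genes of 3457 to 8988 nt 10.5%, 4.07% and 10.2% were higher. The partners' median log2 ratios were 0.06, 0.01 and 0.09. With the median of its length group taken from each ratio, where a length was found, the partners' medians were 0.02, -0.01 and -0.003. The difference between the partners' 24 h median before this step and that of the scaffold genes, -0.09, was not tested.

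At 2 h the cytoplasmic partners with the highest ratios were Tnik, a kinase that binds the scaffold (10.4 FPKM in control, 13.3 in cocaine, log2 ratio 0.35), and Homer1, which joins Shank to metabotropic glutamate receptors (35.7 and 44.9, 0.33). Lzts3, a Shank-binding protein, was at 49.5 and 61.5 FPKM (0.31), the actin regulator Baiap2 at 61.4 and 74.7 (0.28) and Nos1, the nitric oxide synthase that binds PSD-95, at 3.43 and 4.18 (0.28). At 24 h Tnik was again higher (9.05 and 11.6 FPKM, 0.35), as was Frmpd4 (7.32 and 8.92, 0.28), and Homer3 was lower (3.37 and 2.60, -0.37). Tnik was the only partner on this list past the fold in the same direction at all 3 time points.

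At 7 d Cit was at 7.32 FPKM in control and 9.49 in cocaine (log2 ratio 0.37), Agap2 at 168 and 213 (0.34), Tnik at 7.57 and 9.60 (0.34) and Homer2 at 6.09 and 7.54 (0.30). Their transcripts are long, with 9514 nt for Cit, 5633 for Agap2, 12276 for Tnik and 10999 for Homer2. In the longest of the 20 length groups, 21.2% of genes were higher past the fold at 7 d. The 3 partners that were lower have short transcripts: Dynll1, a dynein light chain, had 396 and 302 FPKM (-0.39) at 2030 nt, Lin7b 82.4 and 66.4 (-0.31) at 735 nt, and Sharpin, a Shank-binding protein, 15.4 and 12.8 (-0.26) at 1734 nt.

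Of the membrane partners, 3 were higher and 1 lower at 2 h, 1 higher and 0 lower at 24 h, and 3 higher and 0 lower at 7 d, with median log2 ratios of 0.06, 0.04 and 0.05. With 24 genes on the list, 3 higher at 2 h, 1 at 24 h and 3 at 7 d lie near the shares of all genes, 10.3%, 6.00% and 8.19%. The shares of all genes that were lower were 7.26%, 5.45% and 11.9%. Of genes of 3457 to 8988 nt, 10.2% were higher and 2.73% lower at 7 d. Nothing is read from the counts of the membrane partners. The genes past the fold at 2 h were the adhesion genes Nlgn3, on an entry shared with Med12 (12.3 and 16.7 FPKM, 0.43), Lrrtm2 (8.11 and 10.8, 0.41) and Lrrtm1 (20.3 and 24.7, 0.28), and the potassium channel gene Kcna4, which was lower (3.46 and 2.50, -0.45). Lrrtm1 was also the 1 gene higher at 24 h (18.9 and 23.1, 0.28). At 7 d all 3 were NMDA receptor subunits, the receptors that PSD-95 binds: Grin2b at 10.2 and 14.2 FPKM (0.48), Grin2a at 5.49 and 7.48 (0.44) and Grin2c at 8.85 and 10.7 (0.27). The other NMDA receptor subunits listed, Grin1 (0.15) and Grin2d (0.11), stayed short of the fold.

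The genes whose 3 ratios lay closest to the scaffold medians, out of 74 on the partner lists and on lists of presynaptic and inhibitory scaffolds compared by Euclidean distance, were Kcna1, Camk2a, Cacng2, Dynll2 and Rims1, at distances of 0.06 to 0.14. Camk2a, the alpha subunit of the kinase most abundant in the postsynaptic density, was at 895 FPKM in control and 999.9 in cocaine at 2 h (log2 ratio 0.16). It was at 1048 and 968 at 24 h (-0.11) and at 844 and 999.0 at 7 d (0.24). Scaffolds of the presynaptic active zone had medians of 0.04, 0.05 and 0.16, with 7, 5 and 8 of the 9 above 0. None of the 9 passed the fold at any time point, where 10.3%, 6.00% and 8.19% of all genes were higher and 7.26%, 5.45% and 11.9% lower.

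**Figure D4:**
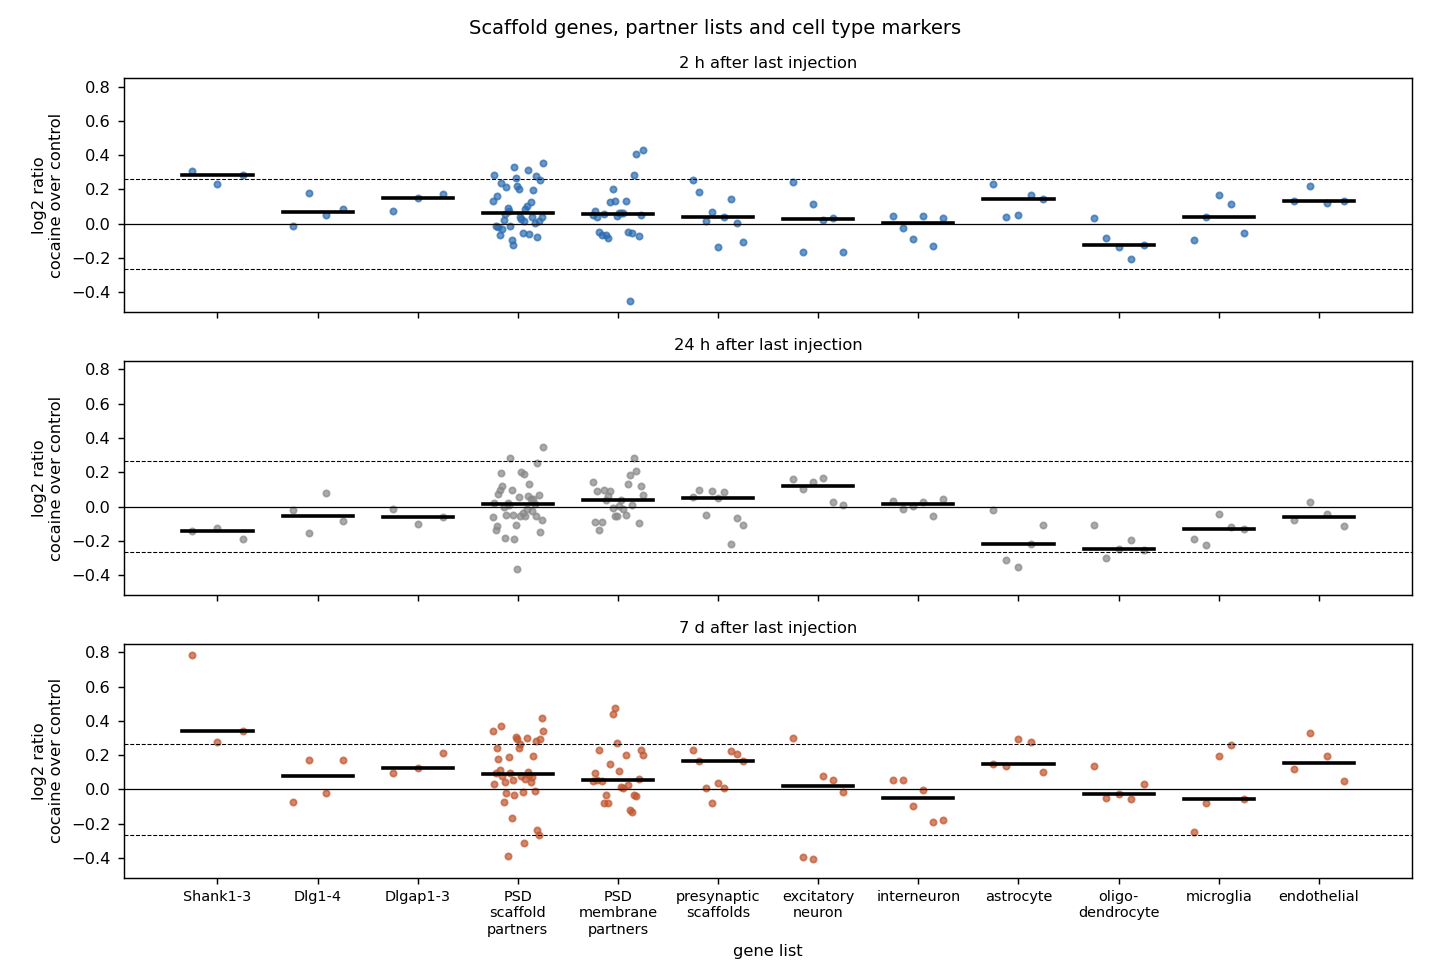
Log2 ratio of cocaine over control (vertical axis) for the genes of each list at 2 h, 24 h and 7 d, each point a gene and each black bar the median of its list, from 1 pooled value per group. Dashed lines mark 1.2-fold, and PSD stands for postsynaptic density. The Shank bar lies at 0.28, -0.15 and 0.34, and the astrocyte bar at 0.15, -0.22 and 0.15 takes the same signs.

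Markers of the other cells in the tissue were read beside these ratios. The 5 astrocyte markers moved with the scaffold genes in sign: 5 of 5 were above 0 at 2 h, 0 of 5 at 24 h and 5 of 5 at 7 d, and their summed level was 319 FPKM in control and 351 in cocaine at 2 h. It was 367 against 327 FPKM at 24 h and 313 against 351 at 7 d. The 4 endothelial markers had medians of 0.13, -0.06 and 0.16, also with the same signs. The 6 excitatory neuron markers, of the cells that hold most of these synapses in cortex, had medians of 0.03, 0.12 and 0.02 and the 6 interneuron markers 0.00, 0.02 and -0.05, and neither list took the signs of the scaffold genes. Oligodendrocyte markers had medians of -0.13, -0.25 and -0.03 and microglial markers 0.04, -0.13 and -0.06. The 5 choroid plexus markers summed to 4.20 FPKM in control and 3.30 in cocaine at 2 h, 4.92 against 4.37 at 24 h, and 3.43 against 9.56 at 7 d. Most of the 7 d difference was in Ttr, the transthyretin gene, at 0.284 FPKM in control and 6.54 in cocaine, and Ttr was at 1.90 and 0.461 FPKM at 2 h. No marker read was at 0, and the part of these other cells in the scaffold ratios was not tested.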

How the data were processed

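RNA-seq libraries of mouse PFC were sequenced on an Illumina HiSeq2000. The submitters' processing notes name CASAVA 1.8.2, Trimmomatic 0.32, TopHat2 2.0.12, Cufflinks 2.2.1 and Cuffdiff on GRCm38. The methods name cutadapt and mm9, and the loci matched RefSeq GRCm38.p6 for over 99.8% of genes compared. The authors deposited 1 Cuffdiff table per time point with a pooled FPKM per group and locus. The authors' log2 fold changes, test statistics, p-values and q-values in the same tables were not used. Values of single libraries were not used here, so the depth behind each value is unknown from the tables and no test was run. Control and cocaine columns were identified by their headings (C for control) and by supplementary lists of the study that name the same values as saline and cocaine.

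FPKM were compared in Python 3.11.15 with pandas 2.3.3 and numpy 2.4.6 as log2((cocaine + 0.1)/(control + 0.1)), and plotted with matplotlib 3.10.9. A name on several loci took the longest, with ties going to the higher mean FPKM. Genes with a mean of at least 1 FPKM formed the background. Lengths were the longest protein-coding transcripts of GENCODE M1, found for 84.4%, 83.7% and 83.9% of background genes at 2 h, 24 h and 7 d. The steps were tested on simulated data. Named partners were those past 1.2-fold, at most the 5 highest and 5 lowest per list and time point, except for an item that is not reported here. The members and lists were chosen with earlier results of these data known. Gene positions are those of the 2 h table unless stated, 1-based.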

Additional observations from a re-analysis of the deposited data

Results flagged for a closer look

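For 5 scaffold genes the log2 ratio of cocaine over control lay on opposite sides of 0 at 2 time points and differed by more than 1.2-fold between them. The ratio at 2 h less that at 24 h was 0.45 for Shank1, 0.36 for Shank2, 0.47 for Shank3 and 0.33 for Dlg2. The ratio at 24 h less that at 7 d was -0.93 for Shank1, -0.40 for Shank2, -0.53 for Shank3, -0.33 for Dlg2 and -0.27 for Dlgap3. None of these differences was tested, since each rests on 1 pooled value per group. The Dlg2 differences are those of the entry used. The second Dlg2 entry had log2 ratios of 0.17, 0.12 and 0.14 at 2 h, 24 h and 7 d, all above 0. The 7 d value of Shank1 comes with the locus described above, which differed from that of the other time points.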

How the results depend on the processing

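With 1.1-fold in place of 1.2-fold, 6 scaffold genes were higher at 2 h, 3 lower at 24 h and 6 higher at 7 d, where 24.2%, 14.6% and 21.1% of all genes did the same, and the medians of 0.16 and 0.17 at 2 h and 7 d passed the fold. The 2 partner lists, of 38 and 24 genes, together had 9, 3 and 13 higher and 1, 1 and 3 lower at the 3 times. With 1.1-fold these became 17 higher at 2 h, 10 higher and 4 lower at 24 h, and 23 higher and 5 lower at 7 d. Of all genes, 24.2%, 16.5% and 21.1% were higher past 1.1-fold at the 3 times, and 16.6%, 14.6% and 25.8% lower. With 1.5-fold, 0 scaffold genes passed at 2 h and 1, Shank1, at 7 d, and 0 partners passed at any time point. Centred on the median of all genes, 1 scaffold gene and 5 partners were higher at 2 h. With the length trend taken out, 0 scaffold genes and 4 partners were higher at 2 h, and 1 scaffold gene and 5 partners were higher and 1 partner lower at 7 d. No share of all genes is given beside the centred counts, those without the length trend or those of the next settings. Nothing is read from these counts. Adding 1 FPKM in place of 0.1 left 8 partners higher at 7 d, and a minimum of 5 FPKM left 0 partners lower at 2 h and 24 h. Without Shank1, a choice made after seeing the data, 1 scaffold gene was higher at 2 h. Of the values of single scaffold genes under these alternatives, 310 kept their side of the fold, 10 came past it and 9 fell short of it. Many of the 310 were fixed in advance. Dropping the minimum FPKM, raising it to 5 or keeping only entries that name 1 gene left each scaffold value as it was. Choosing entries by mean FPKM took the same entries again. The second Dlg2 entry, with a log2 ratio of 0.12 at 24 h against -0.16, was not among the alternatives. The sign changed in 2 of the values counted, both short of the fold, with the length trend taken out: Dlg3 at 2 h went from 0.05 to -0.01 and Dlgap1 at 7 d from 0.10 to -0.03.

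No paired analysis was possible because the tables hold pooled values and no library of its own. Leaving out each library was not run for the same reason, so the spread within groups is unknown. The Cuffdiff tables do not tell overlapping entries apart by strand.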

Other observations

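Gphn, which encodes the gephyrin scaffold of inhibitory synapses, was listed at 1547 FPKM in control and 1241 in cocaine at 24 h, but at 17.7 and 17.5 at 2 h and at 17.7 and 18.1 at 7 d. Lhfpl4, which encodes another protein of inhibitory synapses, lay between 17.6 and 21.6 FPKM in all 6 groups. Both genes were named after their values were seen.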
